A study of Mus musculus with 12 samples.

Results

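The ISG15 conjugation system was followed as 5 genes of the 23329 listed in the mRNAseq count tables. They are Isg15, Uba7, Ube2l6, Herc6 and Usp18, chosen by their known roles and found by symbol, and all 5 were among the 13038 genes that passed the expression filter (more than 0.5 CPM, counts scaled to the library size, in all libraries of at least 1 group). Primary stromal cells of the small intestine, which the labels call myofibroblasts, were grown from E14.5 embryos or from adult mice and used after a few passages. The mice were C57BL6/J, and embryos were pooled for each embryonic culture. Cells received LPS from Escherichia coli O111:B4, stated as 10 µg/µl, for 6 h, or vehicle (PBS), which gave 4 groups (embryonic PBS, embryonic LPS, adult PBS and adult LPS) of 3 libraries each. The labels state neither the age of the adults in weeks nor the sex of any animal.

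ISG15 is a small ubiquitin-like protein that is attached to other proteins by a relay of enzymes. Uba7 (E1) activates it, Ube2l6 (E2) carries it, and in the mouse Herc6 (E3) passes it on to substrates, while Usp18 removes it again. Interferons, which cells release after sensing microbial products such as LPS, are known to raise expression of these genes through transcription factors, among them Stat2 and Irf9, that bind interferon-stimulated response elements (ISRE), and Usp18 protein also dampens signalling at the type I interferon receptor.

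Each library held between 18850224 and 32672370 counts assigned to genes, so that 3 counts, taken as the limit of detection, corresponded to 0.0896 to 0.144 CPM; this limit covers counting error only. The lowest value of any member was 17 counts, for Usp18 in 1 embryonic PBS library. Fibroblast and myofibroblast markers were abundant in all 12 libraries, with a summed level of 10 markers between 22086 and 45170 CPM. The cultures also held other cells: 10 leukocyte and macrophage markers, among them Ptprc, Csf1r and Cx3cr1, summed to between 92.0 and 1226 CPM in the 6 embryonic libraries and to between 6.59 and 59.6 CPM in the 6 adult libraries, and only Sfpi1 was at 0, in 1 adult PBS library. The 3 markers of T, B and NK cells were at or near 0 throughout. In bulk RNA, fewer cells of a type and less RNA per cell cannot be told apart.

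The promoter windows of the members, each reaching from 250 bases before to 50 bases after the RefSeq start on GRCm38.p6, were searched for the ISRE core GAAANNGAAA on both strands. A window was held for Isg15, Uba7, Ube2l6 and Herc6. The Isg15 window is shown because it held the motif, and the Uba7 window for comparison because it did not and because Uba7 had the lowest mean level per kilobase in embryonic LPS libraries. Isg15 lies on the minus strand of chromosome 4, with its window at chr4:156200769-156201068, and Uba7 on the plus strand of chromosome 9, with its window at chr9:107975317-107975616. Capitals mark the ISRE cores.
Isg15: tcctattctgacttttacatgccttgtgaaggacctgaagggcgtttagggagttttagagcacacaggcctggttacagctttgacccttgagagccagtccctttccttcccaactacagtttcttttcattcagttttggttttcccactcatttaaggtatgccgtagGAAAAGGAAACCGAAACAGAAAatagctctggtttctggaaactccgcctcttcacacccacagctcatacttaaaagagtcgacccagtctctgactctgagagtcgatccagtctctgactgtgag
Uba7: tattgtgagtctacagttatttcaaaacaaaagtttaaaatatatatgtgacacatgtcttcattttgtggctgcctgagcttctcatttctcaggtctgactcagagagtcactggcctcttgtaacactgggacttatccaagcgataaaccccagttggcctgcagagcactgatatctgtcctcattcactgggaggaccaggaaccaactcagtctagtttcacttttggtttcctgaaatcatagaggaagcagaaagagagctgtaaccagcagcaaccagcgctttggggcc
The Isg15 window held 3 overlapping ISRE cores, with their first bases 78, 72 and 66 bases before the start. The ISRE core was found in 1 of the 4 member windows and in 3.44% of all 32851 windows of this length. The GAS core TTCNNNGAA was found in 0 of the 4 windows and in 8.30% of all windows, and the NF-kB consensus in 0 of the 4 and in 8.46% of all. A missing match says only that these letters are not in the window.

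To ask how the system responded to LPS at each stage, counts were compared with edgeR's quasi-likelihood test across all 12 libraries. A gene was called when its adjusted p was under 0.05 and its log2 fold change at least 2 in size. This rule was for LPS against PBS. In the interaction and the stage comparisons below, an adjusted p under 0.05 sufficed, with no fold threshold. In embryonic stroma 4 of the 5 members rose and passed both thresholds, against 1.93% of all tested genes (251 of 13038). In adult stroma 0 of 5 passed, against 0.422% (55 of 13038). An unadjusted p under 0.05 was found for 2 of the 5, Isg15 and Usp18, and for 727 of all 13038 tested genes. The same 2 members were called by edgeR's likelihood ratio test, among 160 genes, and by DESeq2, among 170. Within a stage, an LPS library and the PBS library of the same number departed from the means of their groups in the same way, so each comparison was also fitted with the replicate number as a block. With the block all 5 members were called in embryonic stroma, against 3.41% of tested genes, and Isg15 and Usp18 were called in adult stroma, against 1.62%. The members' median log2 fold change was 4.30 in embryonic and 1.70 in adult stroma, beside medians of -0.000247 and -0.00751 over all tested genes. Every embryonic LPS library lay above every embryonic PBS library for all 5 members, which held for 7.59% of tested genes, and every adult LPS library lay above every adult PBS library for 4 members, which held for 9.10%.

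**Figure D1:**
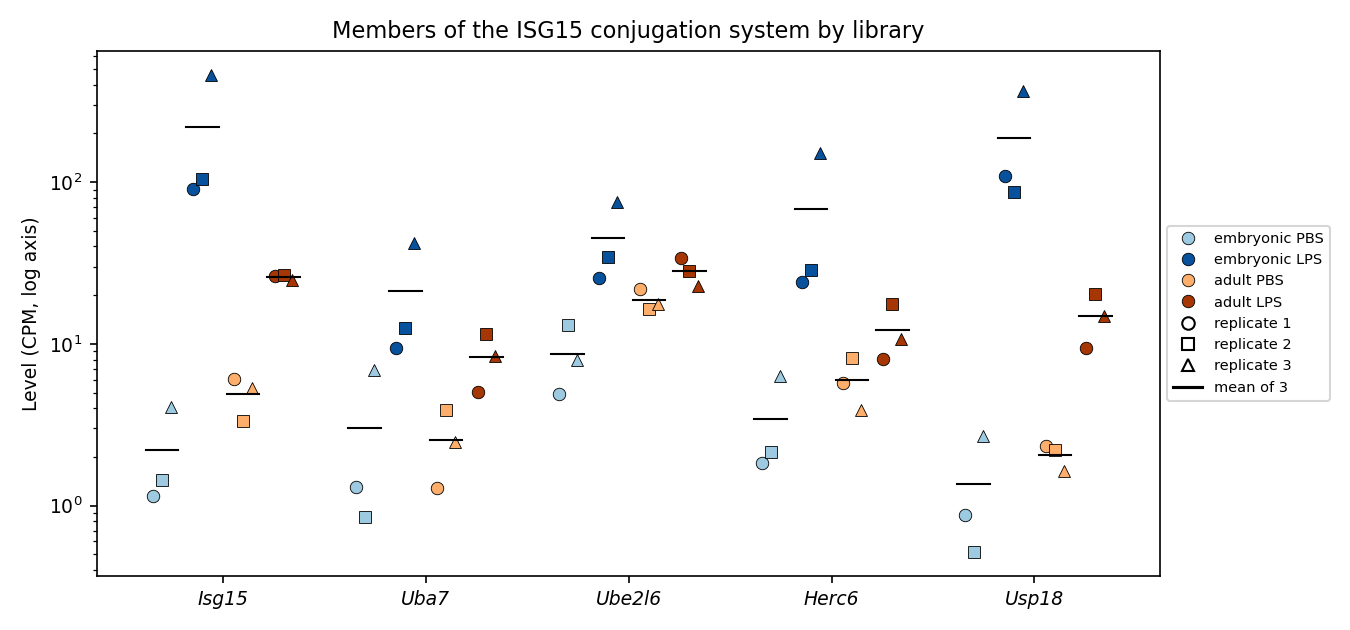
Level of each member (CPM, log axis) in each library, with the 4 groups side by side for each gene, the symbol shape giving the replicate number and the line the mean of 3 libraries. In embryonic LPS, replicate 3 is the highest library for all 5 genes, at 462 CPM for Isg15 and 366 CPM for Usp18.

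Isg15 encodes the modifier itself (chromosome 4, 156199424 to 156200818, RefSeq). With PBS its level was 1.14, 1.43 and 4.06 CPM in embryonic replicates 1, 2 and 3, and 6.08, 3.32 and 5.35 CPM in the adult ones. With LPS it was 91.2, 105 and 462 CPM in embryonic stroma and 26.2, 26.8 and 24.7 CPM in adult stroma. Neither stage had overlapping LPS and PBS libraries, and the 3 adult LPS libraries had a coefficient of variation of 4.09%, while embryonic replicate 3 was 4.40-fold above the next library. In embryonic stroma Isg15 rose by a log2 fold change of 6.63 ± 0.79 (SE, adjusted p = 0.00267), a 98.9-fold change that ranked 72 among 13038 tested genes. In adult stroma the log2 fold change was 2.39 ± 0.66 (adjusted p = 0.229), and it was called with the replicate block, at 2.41 ± 0.18 (adjusted p = 0.000257).

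Uba7 encodes the E1 that activates ISG15 (chromosome 9, 107975567 to 107984056). Its PBS level was 1.29, 0.853 and 6.87 CPM in embryonic replicates 1 to 3 and 1.28, 3.90 and 2.49 CPM in adult ones. Its LPS level was 9.39, 12.6 and 41.9 CPM in embryonic stroma and 5.04, 11.5 and 8.38 CPM in adult stroma. Embryonic replicate 3 was high with and without LPS, and its PBS library was 5.31-fold above the next one. The embryonic log2 fold change of 2.82 ± 0.86 did not pass without the block (adjusted p = 0.155) and was called with it, at 3.03 ± 0.23 (adjusted p = 0.000106), and by the likelihood ratio test (adjusted p = 0.0224) and DESeq2 (adjusted p = 0.00915) without it. Without embryonic PBS replicate 3 the quasi-likelihood test without a block called it as well, at 4.30 (adjusted p = 0.0366), and without embryonic LPS replicate 3 the value was 1.83 (adjusted p = 0.672). In adult stroma the log2 fold change was 1.70 ± 0.84 (adjusted p = 0.997). With the block it was 1.74 ± 0.23 (adjusted p = 0.00431), under the fold threshold.

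Ube2l6 encodes the E2 that carries ISG15 (chromosome 2, 84798828 to 84810003). Its level with PBS was 4.88, 13.1 and 7.92 CPM in embryonic and 21.8, 16.4 and 17.7 CPM in adult replicates 1 to 3. With LPS the levels were 25.7, 34.2 and 75.0 CPM in embryonic and 33.8, 28.3 and 22.8 CPM in adult stroma. The PBS libraries of the stages did not overlap, with the adult ones higher, whereas the LPS libraries did. Ube2l6 rose in embryonic stroma by a log2 fold change of 2.38 ± 0.44 (adjusted p = 0.0182), the smallest change of the system. This call was lost without embryonic LPS replicate 3 (log2 fold change 1.77, adjusted p = 0.0358) and without embryonic PBS replicate 1 (2.10, adjusted p = 0.0736) or replicate 3 (2.33, adjusted p = 0.0730). The adult log2 fold change was 0.61 ± 0.42 (adjusted p = 1) and did not pass with the block either (adjusted p = 0.335), although all 3 adult LPS libraries were above all 3 PBS libraries.

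Herc6 encodes the E3 (chromosome 6, 57580992 to 57665136), and RefSeq lists Herc5, the symbol of the human E3, among its synonyms. With PBS it was at 1.84, 2.13 and 6.33 CPM in embryonic replicates 1, 2 and 3, and at 5.75, 8.23 and 3.88 CPM in adult ones. LPS libraries held 24.2, 28.5 and 151 CPM in embryonic stroma and 8.03, 17.6 and 10.7 CPM in adult stroma. Herc6 was the only member whose adult LPS and PBS libraries overlapped. It rose in embryonic stroma, with a log2 fold change of 4.30 ± 0.82 (adjusted p = 0.0204), and the value fell to 2.91 (adjusted p = 0.0353) without embryonic LPS replicate 3. The call was lost without embryonic PBS replicate 1 (4.002, adjusted p = 0.103) or replicate 2 (4.06, adjusted p = 0.0774). In adult stroma the log2 fold change was 1.03 ± 0.73 (adjusted p = 1), and with the block 1.01 ± 0.22 (adjusted p = 0.0354), under the fold threshold.

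Usp18 encodes the protease that releases ISG15 (chromosome 6, 121245906 to 121270917). With PBS its level was 0.873, 0.518 and 2.69 CPM in embryonic and 2.34, 2.21 and 1.63 CPM in adult replicates 1 to 3. With LPS it reached 109, 87.2 and 366 CPM in embryonic stroma and 9.43, 20.4 and 14.9 CPM in adult stroma. No LPS library overlapped with a PBS library at either stage. Usp18 had the largest response of the system at both stages: it rose by a log2 fold change of 7.10 ± 0.81 in embryonic stroma (137-fold, adjusted p = 0.00228, rank 60 of 13038). The adult log2 fold change was 2.85 ± 0.68 (adjusted p = 0.133), and it was called with the block, at 2.79 ± 0.22 (adjusted p = 0.000302). Isg15 and Usp18 were called in embryonic stroma whichever of the 12 libraries was left out, with log2 fold changes from 5.43 to 7.41 and from 6.14 to 8.07. Adult libraries are not part of this comparison, so their removal moved its fold changes little. With embryonic stroma fitted alone and no block, neither gene was called (adjusted p = 0.107 and 0.105, quasi-likelihood test). Alone with the block both were called.

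With the block, and at any fold, 5 of 5 members passed the adjusted p in embryonic stroma, beside 12.5% of tested genes, and 4 of 5 passed in adult stroma, beside 6.20%. Ube2l6 was the exception in adult stroma (adjusted p = 0.335), and passed with the block when adult stroma was fitted alone (adjusted p = 0.00675). Leaving out embryonic LPS replicate 3, the library with the highest level of every member, brought Isg15 and Usp18 in adult stroma past both thresholds without a block (adjusted p = 0.0332 and 0.0446). In this fit all groups share 1 estimate of the spread.

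The next comparison asked whether the stages differed in their response. Within replicate numbers, LPS exceeded PBS by 6.23, 6.13 and 6.81 (log2 CPM) for Isg15 in embryonic stroma and by 2.10, 2.99 and 2.20 in adult stroma. The same differences for Usp18 were 6.86, 7.22 and 7.05 in embryonic and 1.98, 3.16 and 3.13 in adult stroma. For Herc6 they were 3.67, 3.70 and 4.56 in embryonic and 0.48, 1.09 and 1.45 in adult stroma. All 3 genes thus had differences that separated the stages. For Uba7 the differences lay from 2.598 to 3.776 in embryonic and from 1.54 to 1.92 in adult stroma. For Ube2l6 they lay from 1.38 to 3.23 and from 0.37 to 0.79. Every embryonic difference was above every adult difference for all 5 members, which held for 9.66% of tested genes.

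**Figure D2:**
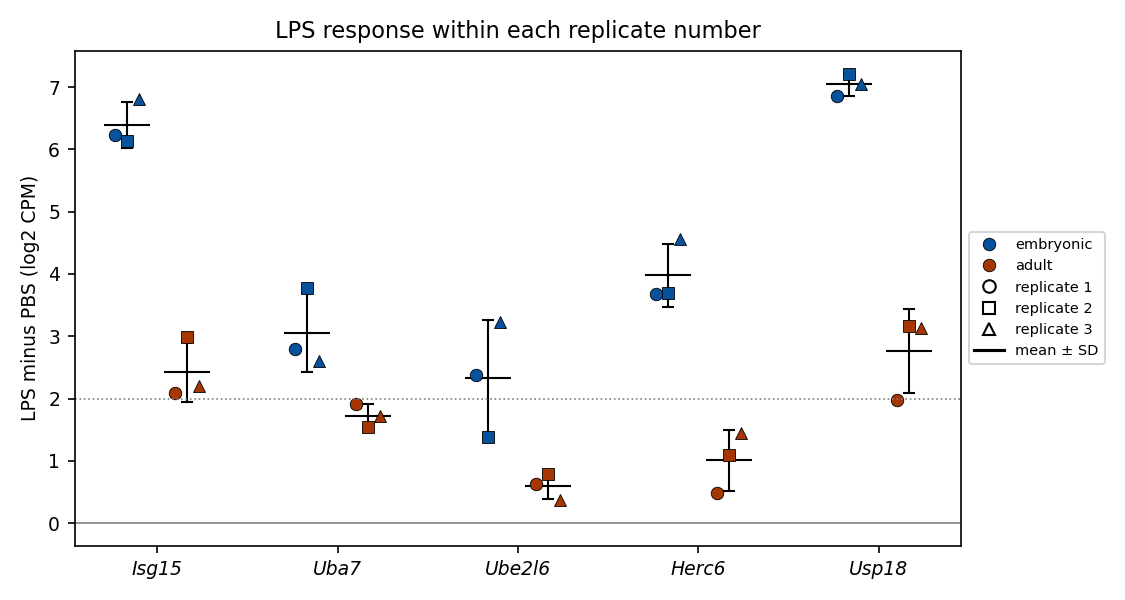
LPS minus PBS (log2 CPM) within each replicate number, for embryonic and adult stroma, with the mean ± SD of 3 differences and dotted line at a log2 difference of 2. The embryonic differences lie above the adult ones for each gene, from 6.13 to 6.81 against 2.10 to 2.99 for Isg15.

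The interaction of stage and LPS, tested with edgeR, was called for 0 of 5 members without the block, where 0.00% of all tested genes were called (0 of 13038) and 293 had an unadjusted p under 0.05. Of the members, 4 had an unadjusted p under 0.05, all but Uba7, and the likelihood ratio test and DESeq2 each called 2, Isg15 and Usp18, among 25 genes. With the replicate block 3 of 5 members were called, against 0.844% of tested genes (110 of 13038). The embryonic response exceeded the adult one by a log2 value of 4.33 ± 0.33 for Usp18 (adjusted p = 0.00119), by 4.10 ± 0.27 for Isg15 (adjusted p = 0.000897) and by 3.06 ± 0.32 for Herc6 (adjusted p = 0.00581). For Ube2l6 the excess was 1.74 ± 0.41 (adjusted p = 0.175) and for Uba7 1.29 ± 0.33 (adjusted p = 0.214), so a difference between stages was not called for the E1 and the E2. With number 3 left out of all groups and the block kept, the 3 calls remained, at 4.52, 3.71 and 2.90. With number 1 left out only Usp18 was called, at 3.99 (adjusted p = 0.0115), and with number 2 left out Ube2l6 was called too, at 2.34 (adjusted p = 0.0442).

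The stages were then compared under each treatment. With PBS 0 of 5 members differed between embryonic and adult stroma, against 4.08% of tested genes, and 1, Ube2l6, had an unadjusted p under 0.05. The likelihood ratio test and DESeq2 called 0 members as well, and 1177 and 1552 of all tested genes. The log2 differences, embryonic minus adult, were -1.15 ± 0.66 for Isg15, -1.11 ± 0.42 for Ube2l6, -0.79 ± 0.74 for Herc6, -0.59 ± 0.69 for Usp18 and 0.24 ± 0.82 for Uba7, with adjusted p values from 0.177 to 0.925. The embryonic libraries all lay below the adult ones for 1 member, Ube2l6, as for 11.9% of tested genes. With LPS 2 of 5 members differed, against 5.31% of tested genes: Usp18 was higher in embryonic stroma by 3.65 ± 0.68 (adjusted p = 0.0189) and Isg15 by 3.08 ± 0.66 (adjusted p = 0.0291). Herc6 was at 2.48 ± 0.75 (adjusted p = 0.0840), Uba7 at 1.36 ± 0.81 (adjusted p = 0.374) and Ube2l6 at 0.67 ± 0.42 (adjusted p = 0.401). The likelihood ratio test (adjusted p = 0.0125) and DESeq2 (adjusted p = 0.00558) called Herc6 too, 3 of 5 members. Of all 13038 tested genes they called 1350 and 1704. For Isg15, Herc6 and Usp18 every embryonic LPS library was above every adult LPS library, as for 13.4% of tested genes. Without embryonic LPS replicate 3 the difference of Isg15 was 1.90 (adjusted p = 0.0583) that of Usp18 2.70 (adjusted p = 0.0393) and that of Herc6 1.10 (adjusted p = 0.320). The call of Isg15 was also lost without any 1 of the 3 adult LPS libraries (adjusted p from 0.0871 to 0.123) or adult PBS replicate 3 (adjusted p = 0.0512). Usp18 lost its call without adult LPS replicate 1 (adjusted p = 0.0698) or replicate 3 (adjusted p = 0.0865).

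The make-up of the system was described within each library, on counts per kilobase of exon (756 bases for Isg15, 6692 for Uba7, 1996 for Ube2l6, 9292 for Herc6 and 2790 for Usp18, all exons of each gene merged). With PBS the E2 was the most abundant transcript per kilobase in 5 of 6 libraries: Ube2l6 held 52.4% and 72.9% of the summed level of the 5 genes in embryonic replicates 1 and 2, and between 51.2% and 55.2% in adult stroma. In embryonic PBS replicate 3 Isg15 was first, with 44.7% against 33.02% for Ube2l6. With LPS Isg15 was first in all 6 libraries, at 68.3%, 72.3% and 76.2% in embryonic and 61.3%, 58.5% and 63.0% in adult stroma. The second place differed between the stages. Usp18 held 22.2%, 16.2% and 16.4% in embryonic LPS libraries, above Ube2l6 at 7.29%, 8.90% and 4.68%, whereas in adult LPS libraries Ube2l6 held 29.9%, 23.4% and 22.04%, above Usp18 at 5.97%, 12.1% and 10.3%. After LPS the E1 and the E3 were the smallest parts, with Uba7 at most at 2.83% and Herc6 at most at 3.12% of the sum.

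**Figure D3:**
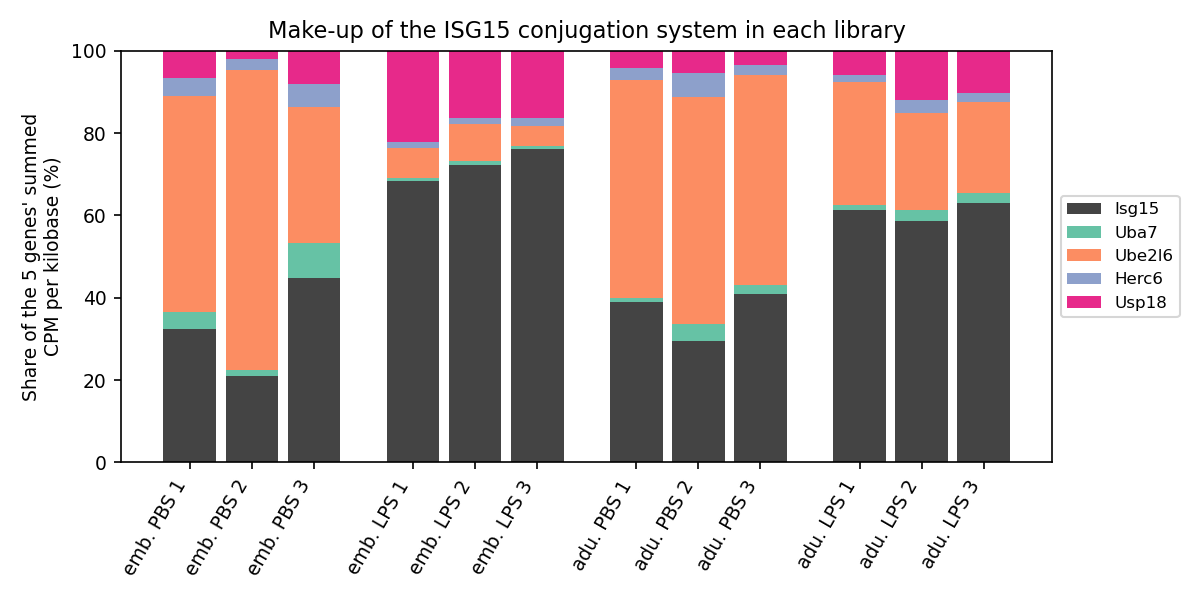
Share (%) of each member in the summed CPM per kilobase of the 5 genes, 1 bar for each library (emb., embryonic; adu., adult). Isg15 takes from 58.5% to 76.2% in the 6 LPS libraries, and Usp18 is the second part in embryonic LPS while Ube2l6 is the second part in adult LPS.

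In levels, embryonic LPS stroma held 290 ± 278 CPM per kilobase of Isg15 (mean ± SD, n = 3), 67.2 ± 55.6 of Usp18, 22.5 ± 13.2 of Ube2l6, 7.30 ± 7.73 of Herc6 and 3.18 ± 2.68 of Uba7. This order held in each of the 3 libraries, although the values of neighbours overlapped between libraries. Adult LPS stroma held 34.3 ± 1.40 CPM per kilobase of Isg15, 14.2 ± 2.75 of Ube2l6, 5.34 ± 1.97 of Usp18, 1.30 ± 0.53 of Herc6 and 1.24 ± 0.48 of Uba7. There the ranges of Isg15, Ube2l6 and Usp18 did not overlap, and those of Herc6 and Uba7 did. The log2 ratio of the modifier to its E1, Isg15 to Uba7, was 3.08 ± 0.76 (SD, n = 3) in embryonic PBS and 6.41 ± 0.20 in embryonic LPS libraries, and 4.19 ± 1.24 in adult PBS and 4.87 ± 0.59 in adult LPS libraries. The embryonic LPS values of this ratio (6.43, 6.21 and 6.61) lay above the adult LPS values of 5.52, 4.37 and 4.71. The log2 ratio of Isg15 to Usp18, of the modifier to its protease, was 2.70 ± 0.57 in embryonic PBS, 2.00 ± 0.33 in embryonic LPS, 3.11 ± 0.58 in adult PBS and 2.75 ± 0.55 in adult LPS libraries. For Ube2l6 to Uba7 it was 3.76 ± 1.87, 2.99 ± 0.35, 4.74 ± 1.02 and 3.58 ± 0.79 in the same order of groups. For Herc6 to Uba7 it was 0.10 ± 0.72, 0.99 ± 0.34, 0.82 ± 0.78 and 0.08 ± 0.17. These ratios were not tested.

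The members' responses were set beside those of related genes. Of 7 other enzymes reported to act on ISG15, 1 was called in embryonic stroma: Trim25, an E3 for ubiquitin and ISG15, rose by a log2 fold change of 3.48 ± 0.48 (adjusted p = 0.00488), with a mean of 219 CPM after LPS and 19.6 CPM without. Its adult log2 fold change was 1.11 ± 0.44 (adjusted p = 0.685), and with the block its embryonic response exceeded the adult one by 2.34 ± 0.27 (adjusted p = 0.00903). The lowest of this list was the protease Usp2, at -0.86 ± 0.48 in embryonic and -0.56 ± 0.47 in adult stroma, neither called, and the list's median was -0.05 in embryonic and -0.11 in adult stroma. The nearest relatives in sequence or family (9 of 10 listed, among them the ubiquitin E1 Uba1, the ubiquitin E2 Ube2l3 and the other Herc genes) had 0 calls at either stage. Their log2 fold changes lay between -0.20 (Herc3) and 0.20 (Uba1) in embryonic stroma and between -0.68 (Herc3) and 0.12 (Uba1) in adult stroma. Of 7 modifiers of other ubiquitin-like systems 5 passed the filter and 0 were called, from -0.10 (Sumo3) to 0.24 (Atg12) in embryonic and from -0.07 (Atg12) to 0.03 (Nedd8) in adult stroma. Sumo2 and Ubd were below the filter, on counts that leave out reads with several mapping places. A further 5 E1 enzymes of other systems had 0 calls, from -0.25 (Uba2) to 0.01 (Uba3) in embryonic and from -0.06 (Uba2) to 0.11 (Atg7) in adult stroma. With the block, and at any fold, 1 nearest relative passed the adjusted p with a fall in adult stroma. The lowest there was Herc3 (-0.69). Likewise 1 other E1 enzyme passed with a fall in embryonic stroma, where Uba2 was lowest (-0.25). Among relatives, other modifiers and other E1 enzymes 0 passed with a rise.

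**Figure D4:**
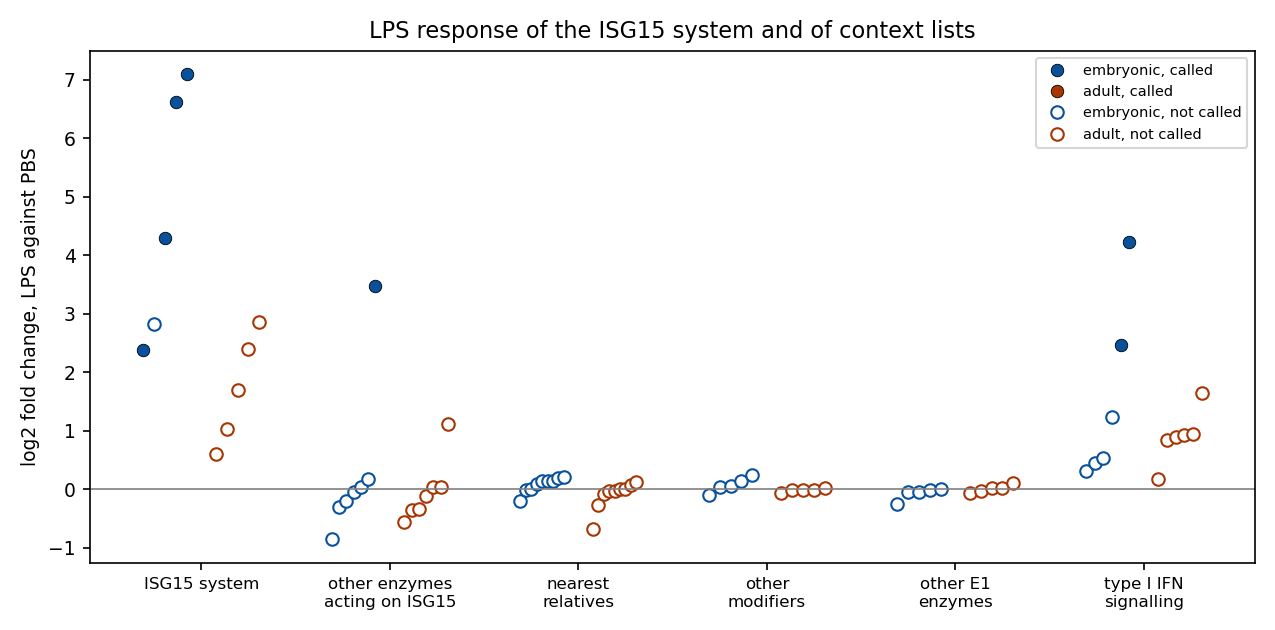
log2 fold change of LPS against PBS for each tested gene of 6 lists in embryonic and adult stroma, without the replicate block; filled points passed both thresholds. The 4 called members and Trim25, Stat2 and Irf9 are filled, all in embryonic stroma, while relatives, other modifiers and other E1 enzymes lie between -0.68 and 0.24.

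Of 6 genes of type I interferon receptor signalling, 2 were called in embryonic stroma and 0 in adult stroma. Over these 6 genes the median log2 fold change was 0.88 (embryonic) and 0.91 (adult). With the block 6 and 5 of the 6 passed the adjusted p at any fold. The called genes encode transcription factors: Stat2 rose by 4.23 ± 0.65 (adjusted p = 0.00822) and Irf9 by 2.47 ± 0.51 (adjusted p = 0.0310). In adult stroma their log2 fold changes were 1.64 ± 0.59 (adjusted p = 0.545) and 0.95 ± 0.49 (adjusted p = 1). The lowest of the list at both stages was the kinase Jak1, at 0.30 ± 0.09 in embryonic and 0.17 ± 0.09 in adult stroma. With the block the embryonic response was larger for Stat2 (by 2.57 ± 0.11, adjusted p = 0.000218) and Irf9 (by 1.66 ± 0.21, adjusted p = 0.0129). For Ifnar1, a chain of the receptor, the embryonic minus adult value was -0.48 ± 0.10 (adjusted p = 0.0964). Itgal and Itgb2, the chains of the receptor for secreted ISG15, are leukocyte genes, and neither was called at either stage. The log2 fold change of Itgal was 1.88 ± 1.06 in embryonic and 1.07 ± 1.16 in adult stroma. That of Itgb2 was -0.15 ± 1.14 and -0.06 ± 1.21 in the same order. With the block 1 of these 2 genes passed the adjusted p at any fold, with a rise, at each stage. The higher of the 2 was Itgal, at 1.83 in embryonic and 1.12 in adult stroma. Itgal had a mean of 90.9 CPM in embryonic LPS against 2.55 CPM in adult LPS libraries.

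For each member, the other genes with the most similar pattern over the 12 libraries were found by the root-mean-square (RMS) difference of log2 CPM centred on each gene's mean. For Isg15 they were Irf7, an interferon regulatory factor (RMS difference 0.41), Oas1b (0.44) and Gbp2 (0.55). For Usp18 they were Igtp (0.51), Gm4951 (0.56) and Ifit3 (0.58). Those of Herc6 included Nmi (0.43) and Parp12 (0.43), and those of Uba7 were Zmynd15 (0.44), Nmi (0.45) and Tmem140 (0.50). Those of Ube2l6 were Samd9l (0.39), Zfp296 (0.41) and Clic4 (0.41). Among the members themselves Isg15 and Usp18 were the closest pair (0.57), Uba7 and Herc6 the next (0.61), and Ube2l6 and Usp18 the farthest apart (2.13).

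The leukocyte markers moved with part of these values. Their summed level in embryonic replicates 1, 2 and 3 was 123, 202 and 1226 CPM with PBS and 92.0, 445 and 910 CPM with LPS. Replicate 3 was thus the highest for the markers, and it was also the highest for all 5 members with LPS and for 4 of 5, all but Ube2l6, with PBS. Between embryonic LPS replicates 1 and 2 the marker sums were 92.0 and 445 CPM while Isg15 stood at 91.2 and 105 CPM and Usp18 at 109 and 87.2 CPM. In adult stroma the marker sums were 52.0, 6.59 and 19.8 CPM with PBS and 59.6, 7.004 and 21.4 CPM with LPS, whereas Isg15 after LPS stayed between 24.7 and 26.8 CPM. Adult replicate 2 had the lowest leukocyte sums and the highest sums of 4 endothelial markers. The endothelial sums were 709 CPM with PBS and 694 CPM with LPS, against 12.04 to 179 CPM in the other adult libraries. Of the adult LPS libraries, replicate 2 had the highest Isg15, Uba7, Herc6 and Usp18, with Isg15 at 1.02-fold above the next. Single leukocyte markers moved in different directions with LPS in embryonic stroma. The range of Cx3cr1 was 23.8 to 271 CPM with PBS and 5.18 to 17.5 CPM with LPS. That of Ptprc was 7.53 to 59.1 CPM with PBS and 19.5 to 162 CPM with LPS. The marker sum thus need not measure leukocyte content alike with and without LPS. The part of the leukocyte and endothelial cells in the stage difference was not tested.

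**Figure D5:**
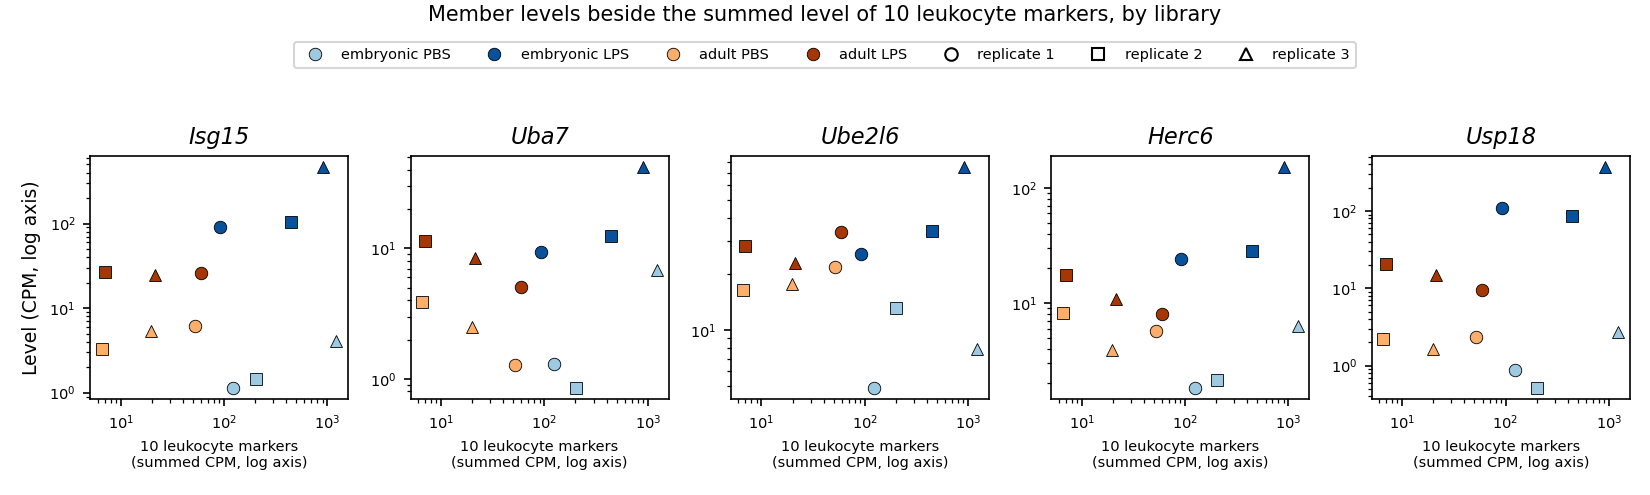
Level of each member (CPM, log axis) beside the summed level of 10 leukocyte and macrophage markers (CPM, log axis) in the 12 libraries, coloured by group with the symbol shape giving the replicate number. The embryonic libraries have marker sums from 92.0 to 1226 CPM and the adult ones from 6.59 to 59.6 CPM. At both stages LPS libraries of Isg15 and Usp18 lie above PBS libraries. Single markers moved in different directions with LPS, so equal sums need not mean equal leukocyte content.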

How the data were processed

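The series holds 12 polyA stranded RNA-seq libraries of mouse intestinal stromal cells. Per the methods, the authors trimmed reads with Trim Galore, mapped them to GRCm38.p6 (mm10) with STAR, discarded reads with more than 1 mismatch or several mapping places, and deposited raw counts for each gene symbol, with no normalization. Counts on the strand of the transcript were used; for the members, the opposite strand held 0.454% to 0.898% of the counts. Replicate number, stage and treatment came from the sample labels. The methods describe independent cultures.

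The analysis used edgeR 4.0.16 in R 4.3.3. Genes above 0.5 CPM in all libraries of a group were kept, as in the study, with TMM normalization computed before and again after this filter. The quasi-likelihood test was fitted to all 12 libraries with Benjamini-Hochberg adjustment over all 13038 genes. The standard error is the absolute log2 fold change over the square root of F. Log2 CPM used a prior count of 2. Comparisons of LPS with PBS share no libraries between stages, while the interaction and the stage comparisons reuse them. LPS and PBS libraries of 1 number correlated in their deviations from the group means (r from 0.610 to 0.850 over genes), so the replicate number within a stage was added as a block; the pairing rests on these numbers and this check. Libraries of the same number at the 2 stages were not paired in this way.

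Exon lengths came from GENCODE M21, and positions and promoter windows from RefSeq on GRCm38.p6. DESeq2 1.42.0, the likelihood ratio test and other settings were alternatives, and code was tested on simulated data. Figures were drawn with matplotlib 3.10.9 in Python 3.11.15. The text gives all 5 members in all libraries, and from each list of related genes those called and the highest and lowest at each stage, with the values of some genes not reported here. The members and lists were chosen with earlier results of these data known. Usp41 was not matched and was not analysed here, and Emr1 and Sfpi1 are older symbols of Adgre1 and Spi1.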

Additional observations from a re-analysis of the deposited data

Results flagged for a closer look

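The response to LPS differed between embryonic and adult stroma for 3 members when the replicate number was a block, by the test of the interaction itself. The embryonic minus adult log2 response was 4.10 for Isg15, 3.06 for Herc6 and 4.33 for Usp18. Without the block the values were 4.24, 3.27 and 4.25, with adjusted p values of 0.968, 1.000 and 0.968 in edgeR's quasi-likelihood test.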

How the results depend on the processing

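The members' log2 fold changes had 570 alternatives. Those at another threshold reused the main fit, so only their calls could change. Leaving out an adult LPS library hardly moved an embryonic response, as for Isg15 (6.63 each time). Of the 570, 521 kept their direction and their side of the thresholds, 20 lost the call, 26 gained it and 3 turned direction. The 3 were Uba7, embryonic against adult with PBS (0.24), at -0.095 with the replicate block across stages, -0.08 without adult PBS replicate 1 and -1.24 without embryonic PBS replicate 3; with one library left out it lay between -1.24 and 0.68. The replicate block called 2 members in adult stroma and 3 in the interaction, in place of 0 and 0, and changed all-gene counts from 251, 55 and 0 to 444, 211 and 110. The likelihood ratio test and DESeq2 each called 2 members in adult stroma and 2 in the interaction. Their all-gene counts were 160 and 170 in adult stroma and 25 each in the interaction. Each stage fitted alone called 0 members in embryonic stroma (4 of all genes) and 2 in adult stroma (124 of all genes). Alone with the replicate block it called 5 members in embryonic stroma (384 of all genes) and 2 in adult stroma (194 of all genes). At an adjusted p under 0.01, 2 members were called in embryonic stroma (103 of all genes) and 0 for embryonic against adult with LPS (96 of all genes). With 1 library left out, members called ranged from 2 to 4 in embryonic stroma (2 without embryonic PBS replicate 1) and from 0 to 2 in adult stroma. For embryonic against adult with LPS they ranged from 0 to 2. All-gene counts in these fits ranged from 97 to 303, from 4 to 91 and from 132 to 814, in that order. With one number left out of all groups and the replicate block kept, an alternative chosen after seeing the data, 2 members were called in adult stroma each time and 1, 4 and 3 in the interaction. For the likelihood ratio test, DESeq2 and the left-out libraries the cause was not tested. With the length of the longest RefSeq transcript in place of merged exons, the log2 ratio of Isg15 to Usp18 was 2.05, 1.34, 2.45 and 2.09 (embryonic PBS, embryonic LPS, adult PBS, adult LPS), that of Isg15 to Uba7 2.02, 5.35 and 3.80 (embryonic PBS, embryonic LPS, adult LPS), and that of Ube2l6 to Uba7 2.28 in embryonic LPS; this setting shifts a ratio by the same amount in all groups. All-gene counts ranged from 4 (embryonic stroma alone) to 444 in embryonic and from 4 to 211 in adult stroma.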
